A study of Mus musculus with 12 samples.

Results

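The genes described here are the WNT ligands, their Frizzled receptors and the secreted WNT inhibitors, in mouse hearts with and without Adam12, after pressure overload or sham surgery. They were taken as all genes whose symbol begins with Wnt, Fzd, Sfrp or Dkk followed by a digit, together with Frzb and Wif1, and antisense symbols were left out. The rule found 34 of the 26989 genes tested: 17 Wnt ligands, 9 Frizzled receptors, 5 inhibitors of the SFRP, FRZB and WIF1 type and 3 Dickkopf genes, each read on 1 probe set. RefSeq lists 39 mouse genes that match the rule, and the other 5 (Fzd8, Wnt8a, Wnt8b, Dkk1 and Sfrp5) were not analysed here.

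RNA came from whole hearts of male C57BL/6J mice aged 10 weeks, collected 2 weeks after surgery. The 4 groups were Adam12 knockout hearts after transverse aortic constriction (KO TAC), knockout hearts after sham surgery (KO sham), wild type hearts after constriction (WT TAC) and wild type hearts after sham surgery (WT sham), with 3 biological replicates each. TAC narrows the aortic arch, which puts the left ventricle under pressure load, and ADAM12 is a membrane-anchored metalloprotease. The series asked how the genes of signalling elements change in these hearts; the allele of the knockout, and whether it is limited to some cells, is not given in the sources used here.

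WNT proteins are secreted lipid-modified ligands that bind Frizzled receptors on the cell surface. With LRP coreceptors this stabilizes beta-catenin, which activates transcription through TCF and LEF factors, while other Frizzled signals run through planar polarity and calcium branches. SFRP proteins and FRZB carry a Frizzled-like cysteine-rich domain and bind WNT ligands outside the cell, WIF1 binds them through another domain, and Dickkopf proteins act mostly on the LRP coreceptors. In the adult heart, WNT signalling is low in the resting state and is known to be engaged in injury and fibrosis.

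Levels are log2 signals, on which a difference of 1 is a 2-fold change. Errors of levels are SD over 3 arrays, errors of differences are SE from limma, and a gene was called at a Benjamini-Hochberg adjusted p under 0.05 over all genes tested. The arrays had like signal, with medians of 4.93 to 5.10 over all probe sets other than controls. WT TAC arrays differed more among themselves than the others, with a median SD per gene of 0.136, against 0.107 in KO TAC, 0.108 in KO sham and 0.111 in WT sham hearts. With 3 arrays in each group, their number limits the precision of every value. In whole hearts, fewer cells of a type and less RNA per cell cannot be told apart.

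Adam12 was read first, as the check of the genotype labels. Its probe set is dim and also carries the symbol 5830403F22Rik, and whether it lies in the deleted part is not given in the sources used here. It read 4.25, 4.40 and 4.36 in KO TAC and 4.33, 4.40 and 4.32 in KO sham replicates 1 to 3, against 4.56, 4.73 and 4.80 in WT TAC and 4.54, 4.46 and 4.61 in WT sham replicates 1 to 3. Every knockout array lay below every wild type array. The difference did not pass the test after TAC (-0.37 ± 0.09, adjusted p = 0.163) or after sham (-0.19 ± 0.09, adjusted p = 0.868).

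Most of the family gave little signal. The 23 background probe sets of the array had a 95th percentile of 5.78, and 22 of the 34 genes had a mean signal below it, among them 16 of the 17 ligands. Over all genes tested, 54.5% were dimmer than Fzd9 (5.73) and 58.9% dimmer than Wnt5a (6.10), the members nearest that line on either side. A signal below the line was thus not particular to the family. The 12 genes above it were Wnt5a, the receptors Fzd1, Fzd2, Fzd4, Fzd5, Fzd6 and Fzd7, the inhibitors Sfrp1, Sfrp2, Frzb and Wif1, and Dkk3. For the 22 dimmer genes, an unchanged signal says little about their RNA. Signals of different probe sets are not comparable with each other, so levels are compared between groups within a gene.

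**Figure D1:**
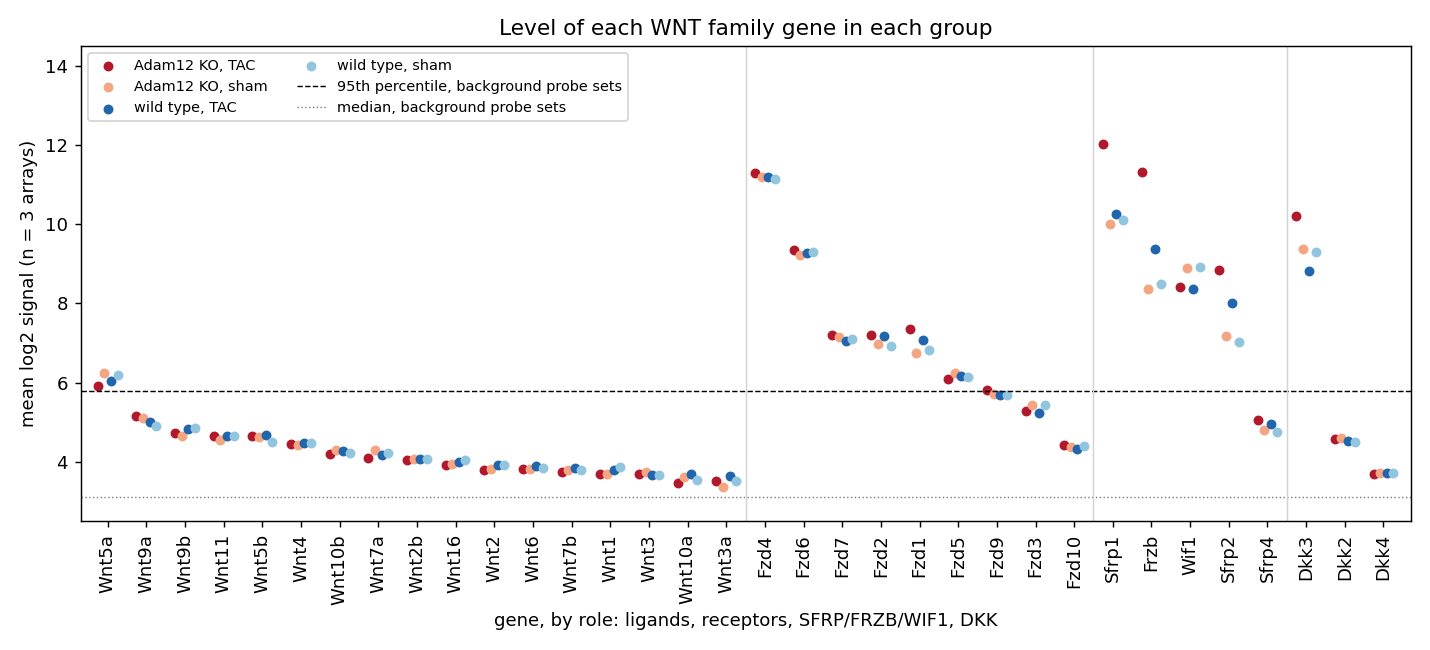
Mean log2 signal (n = 3 arrays) of each of the 34 genes in the 4 groups, with genes placed by role along the horizontal axis; the dashed line is the 95th percentile of the background probe sets (5.78) and the dotted line their median (3.11). All ligands except Wnt5a lie below the dashed line, and the groups lie farthest apart for Sfrp1, Frzb, Sfrp2 and Dkk3.

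In knockout hearts, TAC raised 3 secreted inhibitors and 1 receptor of the family. Frzb, Sfrp1 and Sfrp2 rose to 7.72, 4.05 and 3.15 times their sham level, and Fzd1 to 1.52 times. Called genes higher after TAC were thus 4 of 34, beside 7.08% of all genes tested, and called genes lower were 0 of 34, beside 5.68%. The median difference of the 34 genes was 0.02, against -0.03 over all genes. Groups did not overlap for 7 genes that were higher and 4 that were lower, beside 15.4% and 16.9% of all genes. The family as a whole therefore held called genes at a share of the same order as that of all genes, and the calls lay mainly among the SFRP, FRZB and WIF1 inhibitors, at 3 of 5.

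The stretch before the transcription start is shown for 3 of these 4 genes, because they moved together and their promoters can be compared. Sfrp1 is left out only because no promoter is listed for it in the sources used here. The sequences are the 250 bases before the start in RefSeq (GRCm38.p6), written 5′ to 3′ on the gene's strand with CpG dinucleotides in capitals: Frzb at chr2:80447397-80447646 on the minus strand, Sfrp2 at chr3:83766071-83766320 on the plus strand and Fzd1 at chr5:4758217-4758466 on the minus strand.
Frzb: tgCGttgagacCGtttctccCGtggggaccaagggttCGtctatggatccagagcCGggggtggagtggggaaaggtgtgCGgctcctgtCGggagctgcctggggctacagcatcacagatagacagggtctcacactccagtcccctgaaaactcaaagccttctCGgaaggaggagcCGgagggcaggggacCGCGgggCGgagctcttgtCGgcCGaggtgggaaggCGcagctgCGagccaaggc
Sfrp2: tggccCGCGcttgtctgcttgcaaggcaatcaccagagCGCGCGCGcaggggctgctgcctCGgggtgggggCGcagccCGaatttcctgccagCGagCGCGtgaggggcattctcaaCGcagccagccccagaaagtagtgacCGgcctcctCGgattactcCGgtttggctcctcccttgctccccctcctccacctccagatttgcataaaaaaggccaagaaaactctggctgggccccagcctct
Fzd1: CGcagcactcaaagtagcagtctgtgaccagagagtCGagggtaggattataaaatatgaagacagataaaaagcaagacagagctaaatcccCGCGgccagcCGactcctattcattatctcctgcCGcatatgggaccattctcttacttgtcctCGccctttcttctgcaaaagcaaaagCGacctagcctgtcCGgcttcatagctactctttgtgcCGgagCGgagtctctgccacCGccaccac
They hold 16, 16 and 12 CpG, with a GC content of 64.4%, 63.6% and 51.2% in that order. The median over all 32851 mouse promoters of that length was 6 CpG and 52.4%. Over the 27 promoters listed for 24 of the family's genes it was 22 CpG and 70.8%. None of the 3 holds a TCF/LEF match, searched on both strands as CTTTG followed by AA, AT, TA or TT. Such a match occurs in 14.8% of all promoters and in 3 of the family's 27 (11.1%): those of Fzd7, Wnt11 and Wnt5b, at 130, 51 and 71 bases before the start. Wnt11 and Wnt5b have further listed promoters, and those hold no match. These letters describe the sequence and say nothing of binding.

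Frzb, a secreted inhibitor first known from cartilage, had signals of 11.32, 11.61 and 11.01 in KO TAC replicates 1 to 3, against 8.66, 8.15 and 8.28 in KO sham replicates 1 to 3. In wild type hearts it had 9.25, 10.57 and 8.29 after TAC, against 8.75, 8.48 and 8.21 after sham. The 3 KO TAC arrays lay above every other array, while the WT TAC arrays spread widely and replicate 3 lay within the sham range. The TAC difference of Frzb was 2.95 ± 0.43 in knockout hearts (adjusted p = 0.00123) and 0.89 ± 0.43 in wild type hearts (adjusted p = 0.429, 95% interval -0.06 to 1.84). After TAC, knockout exceeded wild type by 1.94 ± 0.43, or 3.84 times, which did not pass (adjusted p = 0.0709).

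Sfrp1, which binds WNT ligands through its cysteine-rich domain, had 12.40, 11.99 and 11.64 in KO TAC hearts, against 10.24, 10.13 and 9.62 in KO sham hearts. Wild type hearts had 10.14, 11.32 and 9.34 after TAC, against 10.35, 10.02 and 9.97 after sham. Again KO TAC stood above all other arrays, and among WT TAC arrays only replicate 2 exceeded the sham range. The TAC difference was 2.02 ± 0.39 in knockout hearts (adjusted p = 0.00601) and 0.15 ± 0.39 in wild type hearts (adjusted p = 0.921). Its 95% interval in wild type hearts ran between -0.71 and 1.02. After TAC, knockout exceeded wild type by 1.75 ± 0.39 (adjusted p = 0.0720).

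Sfrp2, a relative of Sfrp1 known from scar fibroblasts, had 8.72, 8.96 and 8.85 in KO TAC hearts, against 7.08, 7.45 and 7.03 in KO sham hearts. It had 8.08, 8.64 and 7.35 in WT TAC hearts, against 6.98, 7.01 and 7.06 in WT sham hearts. Here TAC and sham arrays did not overlap in either genotype. The TAC difference was 1.66 ± 0.25 in knockout hearts (adjusted p = 0.00131) and 1.00 ± 0.25 in wild type hearts, where it did not pass (adjusted p = 0.122). After TAC, knockout exceeded wild type by 0.82 ± 0.25 (adjusted p = 0.144).

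The remaining genes of this type did not pass in any comparison. Sfrp4 had a signal below the background percentile, with 5.06 ± 0.22 in KO TAC and 4.81 ± 0.06 in KO sham hearts, and 4.96 ± 0.09 in WT TAC and 4.75 ± 0.13 in WT sham hearts. Without KO TAC replicate 3, Sfrp4 was called for TAC in knockout hearts and for TAC averaged over genotypes. Wif1, a secreted ligand-binding inhibitor, had 8.41 ± 0.48 in KO TAC and 8.89 ± 0.36 in KO sham hearts, and 8.36 ± 0.47 in WT TAC and 8.92 ± 0.38 in WT sham hearts. Its difference between TAC and sham was negative in both genotypes, at -0.48 ± 0.30 in knockout (adjusted p = 0.371) and -0.56 ± 0.30 in wild type hearts (adjusted p = 0.478). Wif1 thus had the opposite sign to Frzb, Sfrp1 and Sfrp2.

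**Figure D2:**
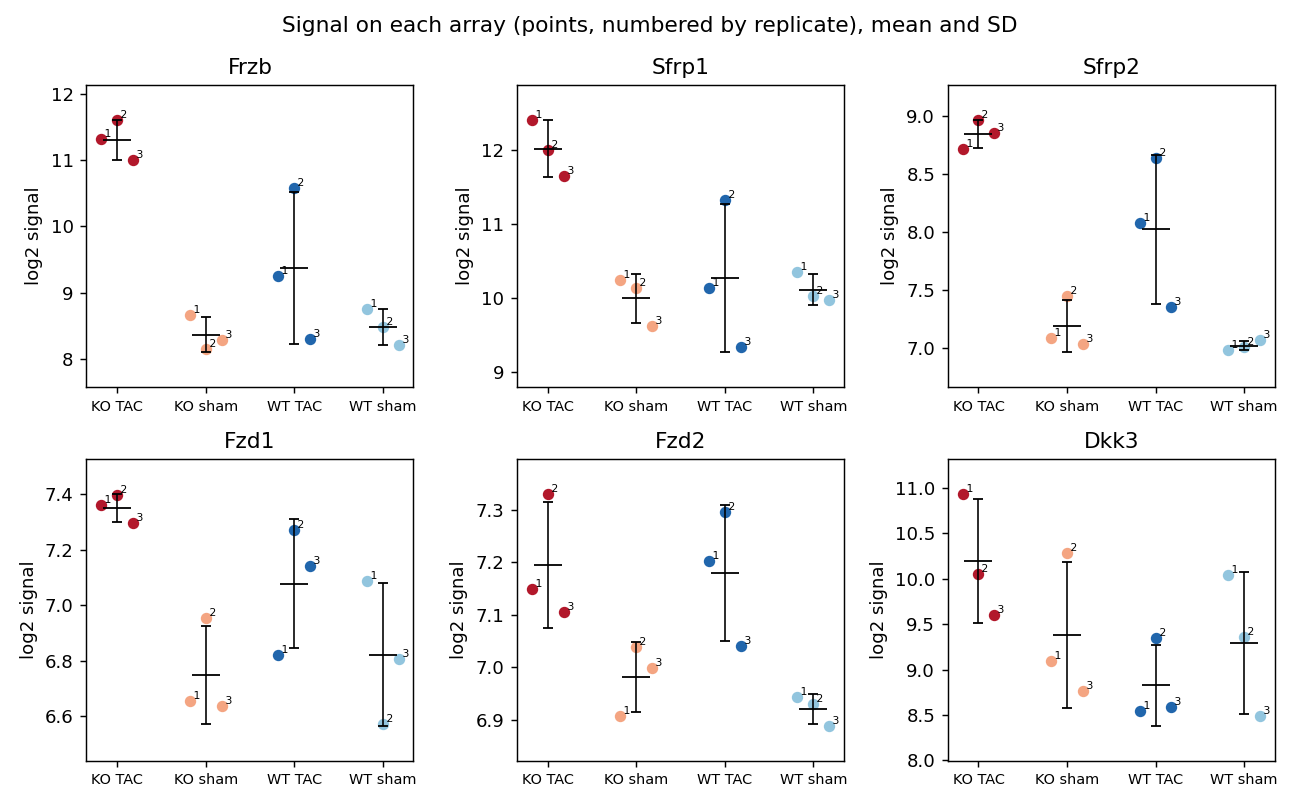
Log2 signal of Frzb, Sfrp1, Sfrp2, Fzd1, Fzd2 and Dkk3 on each of the 12 arrays (points, numbered by replicate), with the mean and SD of each group as bars; vertical axes do not start at 0. KO TAC arrays lie above every other array for Frzb, Sfrp1, Sfrp2 and Fzd1, and the WT TAC arrays spread most for Frzb, Sfrp1 and Sfrp2, with replicate 2 highest.

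Among the Frizzled receptors, the cell surface proteins that bind WNT ligands, Fzd1 was called. It had 7.36, 7.40 and 7.30 in KO TAC hearts, against 6.66, 6.95 and 6.64 in KO sham hearts, and 6.82, 7.27 and 7.14 in WT TAC hearts, against 7.09, 6.57 and 6.81 in WT sham hearts. Knockout groups did not overlap, and wild type groups did. The TAC difference was 0.60 ± 0.15 in knockout (adjusted p = 0.0184) and 0.25 ± 0.15 in wild type hearts (adjusted p = 0.520). The difference stayed between 0.55 and 0.70 in all 20 other settings, but the adjusted p crossed 0.05 in 4 of them: it was 0.0526 without KO TAC replicate 1, 0.0697 without KO TAC replicate 2, 0.0679 without KO sham replicate 1 and 0.0767 without KO sham replicate 3.

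Fzd2, a Frizzled of the same subgroup as Fzd1, had 7.15, 7.33 and 7.11 in KO TAC hearts, against 6.91, 7.04 and 6.998 in KO sham hearts. It had 7.20, 7.30 and 7.04 in WT TAC hearts, against 6.94, 6.93 and 6.89 in WT sham hearts. All TAC arrays lay above the sham arrays of their genotype, but the shift was small and passed in neither genotype, at 0.21 ± 0.09 in knockout (adjusted p = 0.143) and 0.26 ± 0.09 in wild type hearts (adjusted p = 0.241). The other 7 receptors did not pass for TAC in either genotype. Fzd4, the receptor known from retinal vessels, had 11.30 ± 0.45 in KO TAC and 11.20 ± 0.13 in KO sham hearts, and 11.19 ± 0.11 in WT TAC and 11.14 ± 0.25 in WT sham hearts. The differences of the 9 receptors ranged between -0.16 and 0.60 in knockout hearts and between -0.20 and 0.26 in wild type hearts.

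No ligand passed the test in any of the 6 comparisons as fitted. Wnt5a, a ligand best known for signalling without beta-catenin, had 6.01, 5.79 and 5.99 in KO TAC hearts, against 6.34, 6.38 and 6.04 in KO sham hearts. It had 6.07, 5.95 and 6.09 in WT TAC hearts, against 6.23, 6.10 and 6.24 in WT sham hearts. The TAC arrays lay below the sham arrays of their genotype in both, with a difference of -0.33 ± 0.10 in knockout (adjusted p = 0.0597) and -0.15 ± 0.10 in wild type hearts (adjusted p = 0.602). Wnt5a was close to the threshold: it was called lower for TAC in knockout hearts with quantile normalization, without dim genes and without KO sham replicate 3, and for TAC averaged over genotypes also with trended and robust variance. The other 16 ligands had mean signals of 3.51 to 5.05, and the differences of all 17 ligands ranged between -0.33 and 0.14 in knockout hearts and between -0.15 and 0.17 in wild type hearts.

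Dkk3, a Dickkopf relative that unlike the others is not an established LRP antagonist, varied strongly within every group. It had 10.94, 10.05 and 9.60 in KO TAC hearts, against 9.09, 10.29 and 8.76 in KO sham hearts, and 8.54, 9.34 and 8.59 in WT TAC hearts, against 10.04, 9.36 and 8.48 in WT sham hearts. After TAC the genotypes did not overlap, yet the difference of 1.37 ± 0.48 did not pass (adjusted p = 0.208). Of the 6 markers of atrial heart muscle, Bmp10 varied most between arrays and Nr2f1 least. The SE of their TAC difference in knockout hearts was 2.84 and 0.09. The mean of the 6 markers is therefore swayed most by Bmp10. Their mean signal was 10.87, 9.34 and 8.05 in KO TAC, 8.84, 11.31 and 8.63 in KO sham, 7.93, 9.30 and 10.48 in WT TAC, and 11.24, 10.14 and 8.76 in WT sham replicates 1 to 3. In 3 of the 4 groups, Dkk3 and these markers put the replicates in the same order, and in WT TAC they did not. That order was not particular to atrial markers, since the fibroblast markers also matched Dkk3 in the same 3 groups and not in WT TAC. The part of either cell type in the Dkk3 values was not tested. Dkk2 and Dkk4 lay below the background percentile, with differences of -0.03 ± 0.14 and -0.02 ± 0.09 for TAC in knockout hearts.

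In wild type hearts, TAC called 0 of the 34 genes, beside 0.178% of all genes. An unadjusted p under 0.05 was found for 2 of the 34, beside 3330 of all 26989 genes. The genes with the smallest p were Sfrp2 and Fzd2, described above, and Fzd3, a receptor of axon guidance, at -0.20 ± 0.09 (adjusted p = 0.406). Groups did not overlap for 3 genes that were higher and 1 that was lower, beside 9.03% and 7.07% of all genes. The median difference of the 34 genes was 0.01, against 0.02 over all genes. Sfrp2 was called when WT TAC replicate 3 was left out (1.34, adjusted p = 0.0180).

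**Figure D3:**
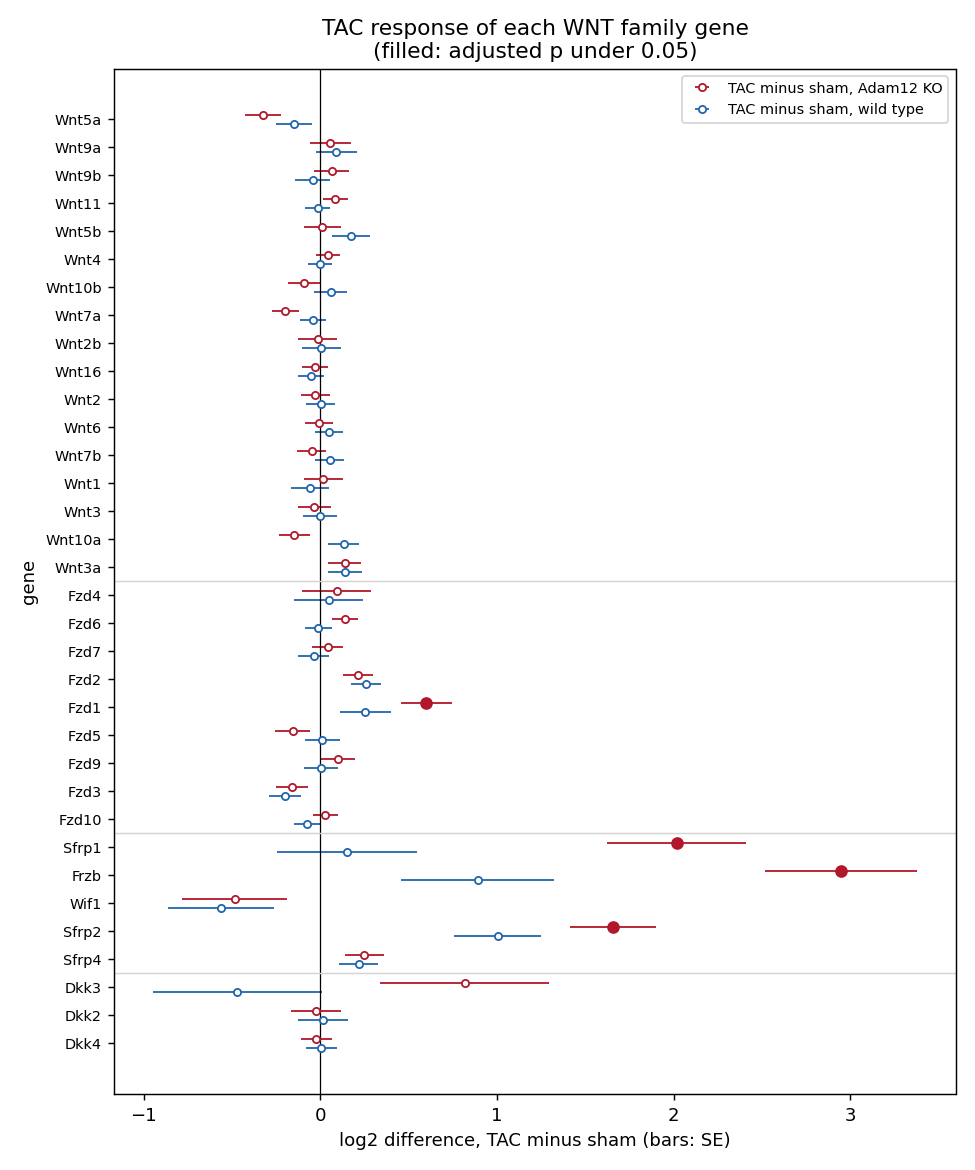
Log2 difference between TAC and sham, with its SE as a bar, for each of the 34 genes in knockout hearts (red) and wild type hearts (blue); filled points have an adjusted p under 0.05. The filled points are Fzd1, Sfrp1, Frzb and Sfrp2 in knockout hearts, and there is none in wild type hearts.

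Averaged over the genotypes, TAC raised 5 of the 34 genes, beside 7.49% of all genes, and lowered 0, beside 6.12%. These were Sfrp2 (1.33 ± 0.17, adjusted p = 0.000599), Frzb (1.92 ± 0.31, adjusted p = 0.00179), Fzd1 (0.43 ± 0.10, adjusted p = 0.0172), Fzd2 (0.24 ± 0.06, adjusted p = 0.0236) and Sfrp1 (1.08 ± 0.28, adjusted p = 0.0238). The count was 3 without KO TAC replicate 2 and 3 without WT sham replicate 3, and in both of these fits Fzd2 and Sfrp1 were not called. Sfrp1 also lost the call without KO TAC replicate 1, KO sham replicate 3 or WT sham replicate 2, and Fzd2 without KO sham replicate 1 or WT TAC replicate 2. Over the 19 other settings the difference stayed between 0.82 and 1.32 for Sfrp1 and between 0.20 and 0.27 for Fzd2.

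Knockout against wild type hearts was compared after each surgery, and the TAC responses of the genotypes were compared directly through their interaction. After TAC, 0 of the 34 genes were called, beside 0.0111% of all genes. An unadjusted p under 0.05 was found for 5 of the 34, beside 3928 of all 26989 genes, a share of the same order. These 5 were Frzb, Sfrp1, Sfrp2 and Dkk3, which were higher in knockout, and Wnt10a, which was lower. Groups did not overlap for 5 genes that were higher in knockout hearts and 1 that was lower, beside 7.91% and 11.3% of all genes. After sham, 0 of the 34 were called, beside 0% of all genes. An unadjusted p under 0.05 was found for 0 of the 34, beside 1495 of all 26989 genes. The smallest p after sham belonged to the ligands Wnt9b (-0.21 ± 0.10, adjusted p = 0.898), Wnt9a (0.19 ± 0.12, adjusted p = 0.928) and Wnt1 (-0.17 ± 0.11, adjusted p = 0.938), all below the background percentile. The median difference of the 34 genes between knockout and wild type was 0.01 after TAC and 0.00 after sham, against -0.04 and 0.01 over all genes.

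The interaction called 0 of the 34 genes, beside 0% of all genes. An unadjusted p under 0.05 was found for 3 of the 34, beside 2963 of all 26989 genes. The TAC response in knockout minus that in wild type was 2.06 ± 0.61 for Frzb (adjusted p = 0.278) and 1.87 ± 0.56 for Sfrp1 (adjusted p = 0.278), and -0.28 ± 0.12 for Wnt10a (adjusted p = 0.438). A difference between the genotypes in their response to TAC was therefore not established for any gene of the family. WT TAC replicate 2, the wild type array highest in Frzb, Sfrp1 and Sfrp2, decided several of these values. Leaving out the highest wild type array could only widen the differences of these genes, so calls made without this replicate add no support. Without it, Frzb (2.54, adjusted p = 0.00172), Sfrp1 (2.28, adjusted p = 0.00302) and Sfrp2 (1.13, adjusted p = 0.0140) were called higher in knockout than wild type after TAC, and the interaction was called for Frzb (2.66, adjusted p = 0.0170) and Sfrp1 (2.40, adjusted p = 0.0275).

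Fibroblast markers moved with these inhibitors. Of 14 listed markers 12 were measured. For TAC in knockout hearts 10 were called higher, beside 7.08% of all genes. For TAC in wild type hearts 0 were called, beside 0.178% of all genes in either direction. The median difference was 2.65 in knockout and 1.10 in wild type hearts, where only Gsn was negative (-0.18). Examples in knockout hearts were Col3a1 (3.81 ± 0.38) and Col1a2 (3.37 ± 0.39), both fibrillar collagens, and Postn (4.57 ± 0.45), a matrix protein of activated fibroblasts, which are among the 4 with the smallest p. Others moved less, such as Tcf21 (0.45 ± 0.13), Ddr2 (0.60 ± 0.11) and Dpt (0.63 ± 0.15), and these were named after their values were seen. The 2 not called were Dcn (0.47 ± 0.16, adjusted p = 0.0857) and Gsn, whose difference was negative (-0.37 ± 0.18, adjusted p = 0.232). The mean signal over the 12 markers was 13.37, 13.31 and 13.03 in KO TAC and 11.17, 11.19 and 10.99 in KO sham replicates 1 to 3, and 12.10, 12.79 and 11.40 in WT TAC and 11.24, 11.17 and 10.99 in WT sham replicates 1 to 3. In WT TAC hearts this put replicate 2 above replicate 1 and replicate 3 lowest, the same order as Frzb, Sfrp1 and Sfrp2. That order was not particular to fibroblast markers. Valve interstitial markers (8.79, 9.40 and 8.20) and smooth muscle and pericyte markers (10.27, 10.58 and 10.12) also had it in WT TAC replicates 1 to 3. So did the lymphocyte markers, which lay below the background percentile. In KO TAC hearts the 3 inhibitors and the fibroblast markers did not keep one order. The part of fibroblast RNA in the inhibitors' values was not tested.

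Markers of other cell types also moved. In knockout hearts, beside 7.08% of all genes called higher and 5.68% lower, TAC raised 5 of 7 measured macrophage markers and lowered 1. It also raised 4 of 4 measured proliferation markers and 2 of 8 endothelial markers. The proliferation marker Mki67 (2.55 ± 0.47) and the macrophage marker Ccr2 (2.24 ± 0.29) moved more than Tcf21, Ddr2 and Dpt. Of 5 measured epicardial markers only Aldh1a2 (1.27 ± 0.23) was called higher, and the others ranged between 0.01 (Krt19) and 0.21 (Wt1). Of 3 measured endocardial markers only Plvap (0.68 ± 0.18) was called higher. The other endocardial markers, Npr3 (-0.59) and Cgnl1 (-0.15), had negative differences and were not called. Of the smooth muscle and pericyte markers, Cspg4 (0.63 ± 0.11) was called higher and Abcc9 (-0.97 ± 0.13) lower. No measured valve interstitial or Schwann cell marker was called in knockout hearts. The 5 cardiomyocyte markers had a mean signal of 16.82 to 16.89 on KO TAC arrays, against 16.95 to 16.98 on KO sham arrays, and of 16.84 to 16.87 on WT TAC arrays, against 16.91 to 16.93 on WT sham arrays. TAC arrays thus lay slightly below sham arrays in both genotypes, mainly through Ryr2, the calcium release channel. Ryr2 was the 1 of the 5 called lower in knockout hearts (-0.48 ± 0.08, adjusted p = 0.00176), and its difference was -0.36 in wild type hearts. The others ranged between -0.09 (Myh6) and 0.09 (Actn2) in knockout hearts. In wild type hearts they ranged between -0.03 (Myh6) and 0.07 (Actn2). All 3 measured lymphocyte markers and both adipocyte markers lay below the background percentile.

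**Figure D4:**
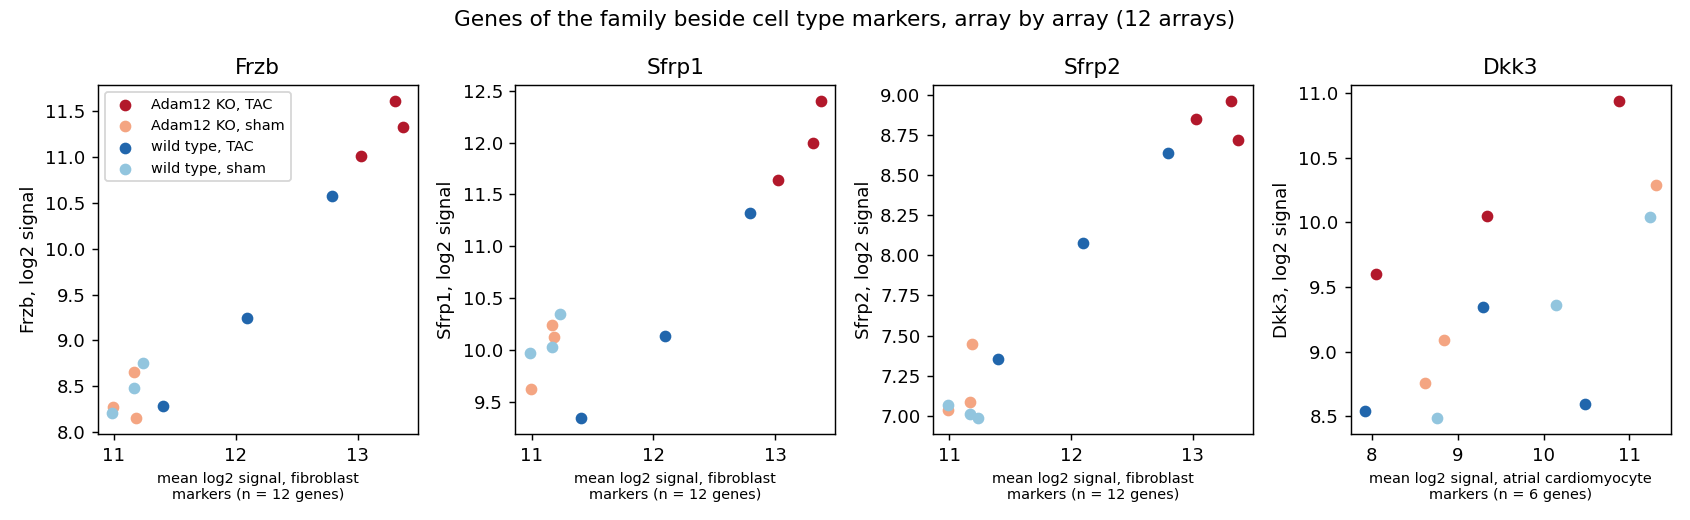
Log2 signal of Frzb, Sfrp1 and Sfrp2 against the mean signal of the 12 measured fibroblast markers, and of Dkk3 against the mean of the 6 atrial markers, with 1 point for each of the 12 arrays. The KO TAC arrays are highest on both axes in the fibroblast panels. WT TAC replicate 3 lies no higher than the highest sham array in each inhibitor. On the fibroblast marker axis it lies above every sham array (11.40, against at most 11.24).

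The rest of the pathway was read from 83 other genes in 5 lists, of which 66 were measured. In knockout hearts TAC raised 14 and lowered 7 of them, beside 7.08% and 5.68% of all genes, with a median of 0.00 against -0.03 over all genes. In wild type hearts 0 of the 66 were called, beside 0.178% of all genes. The lists were surface coreceptors and modulators, ligand secretion, cytoplasmic and nuclear parts, the planar polarity and calcium branches, and known transcriptional targets; 2 or more lists can share a gene.

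Among surface parts, 1 of 18 rose and 3 fell in knockout hearts. Lgr6, a receptor for R-spondins, fell by 1.06 ± 0.13 on the log2 scale (adjusted p = 0.000562). Znrf3, a ubiquitin ligase that removes Frizzled receptors, fell by 0.34 ± 0.07 (adjusted p = 0.00986), and Rspo3, an R-spondin that counters it, fell by 0.46 ± 0.13 (adjusted p = 0.0383). Kremen1, a receptor for Dickkopf proteins, rose by 0.50 ± 0.13 (adjusted p = 0.0293). The list's 4 calls became 2 when KO TAC replicate 2, KO TAC replicate 3 or KO sham replicate 2 was left out. Of the 2 secretion genes, Wls, the carrier that takes WNT ligands to the cell surface, rose by 0.50 ± 0.11 (adjusted p = 0.0139), a call lost without KO TAC replicate 1, KO TAC replicate 2 or KO sham replicate 3, and Porcn, the enzyme that lipid-modifies WNT ligands, differed by -0.05 ± 0.11 (adjusted p = 0.840).

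Of 20 cytoplasmic and nuclear parts, 5 rose and 2 fell in knockout hearts. Nkd2, a Dishevelled-binding inhibitor, had 7.11, 7.29 and 7.12 in KO TAC hearts, against 5.65, 5.50 and 5.52 in KO sham hearts, and 6.15, 6.68 and 5.44 in WT TAC hearts, against 5.44, 5.61 and 5.39 in WT sham hearts. Its difference was 1.62 ± 0.23 in knockout hearts (adjusted p = 0.00105), and it followed the WT TAC order of Frzb, with replicate 2 highest and replicate 3 lowest. Tle3, a corepressor, rose by 0.49 ± 0.09 (adjusted p = 0.00323). Pygo1 and Bcl9, which link beta-catenin to transcription, fell by 0.65 ± 0.11 (adjusted p = 0.00223) and 0.57 ± 0.12 (adjusted p = 0.0107). In the planar polarity and calcium list, 1 of 17 rose and 2 fell: Prickle2 rose by 0.34 ± 0.09, Celsr2 fell by 0.46 ± 0.09 and Mapk8 fell by 0.28 ± 0.08. That count of 3 became 1 without KO TAC replicate 2, KO sham replicate 2 or KO sham replicate 3.

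Of 15 measured targets of beta-catenin signalling, 6 rose and 1, Znrf3, fell in knockout hearts, with a median of -0.07. The 4 with the smallest p were Ccn5 (1.98 ± 0.15, adjusted p = 0.000193), Cd44 (1.25 ± 0.12, adjusted p = 0.000389), Ccn4 (0.80 ± 0.13, adjusted p = 0.00194) and Ccnd2 (1.01 ± 0.18, adjusted p = 0.00349). Ccn4 and Ccn5 encode matrix-associated proteins, Cd44 a hyaluronan receptor and Ccnd2 a cyclin. Axin2, the feedback inhibitor often used as a readout of the pathway, was chosen after its value was seen: it had 5.63 ± 0.05 in KO TAC and 5.82 ± 0.07 in KO sham hearts, and 5.71 ± 0.09 in WT TAC and 5.72 ± 0.10 in WT sham hearts. Its difference of -0.19 ± 0.08 in knockout hearts did not pass (adjusted p = 0.144), and its signal lay below the background percentile in 3 of the 4 groups.

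Between genotypes after TAC, 1 of the 66 pathway genes was called, beside 0.0111% of all genes. Ccn5 had 8.24, 8.59 and 8.07 in KO TAC hearts, against 7.07, 7.41 and 6.87 in WT TAC hearts, and it had 6.36, 6.30 and 6.31 in KO sham and 6.28, 6.28 and 6.45 in WT sham hearts. KO TAC lay above all other arrays, and knockout exceeded wild type by 1.18 ± 0.15 (adjusted p = 0.0440). That call was kept in 6 of 20 other settings, with adjusted p values of 0.00125 to 0.276. Cd44 (0.83 ± 0.12, adjusted p = 0.0592), Nkd2 (1.08 ± 0.23, adjusted p = 0.0649) and Wls (0.47 ± 0.11, adjusted p = 0.0821) did not pass.

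**Figure D5:**
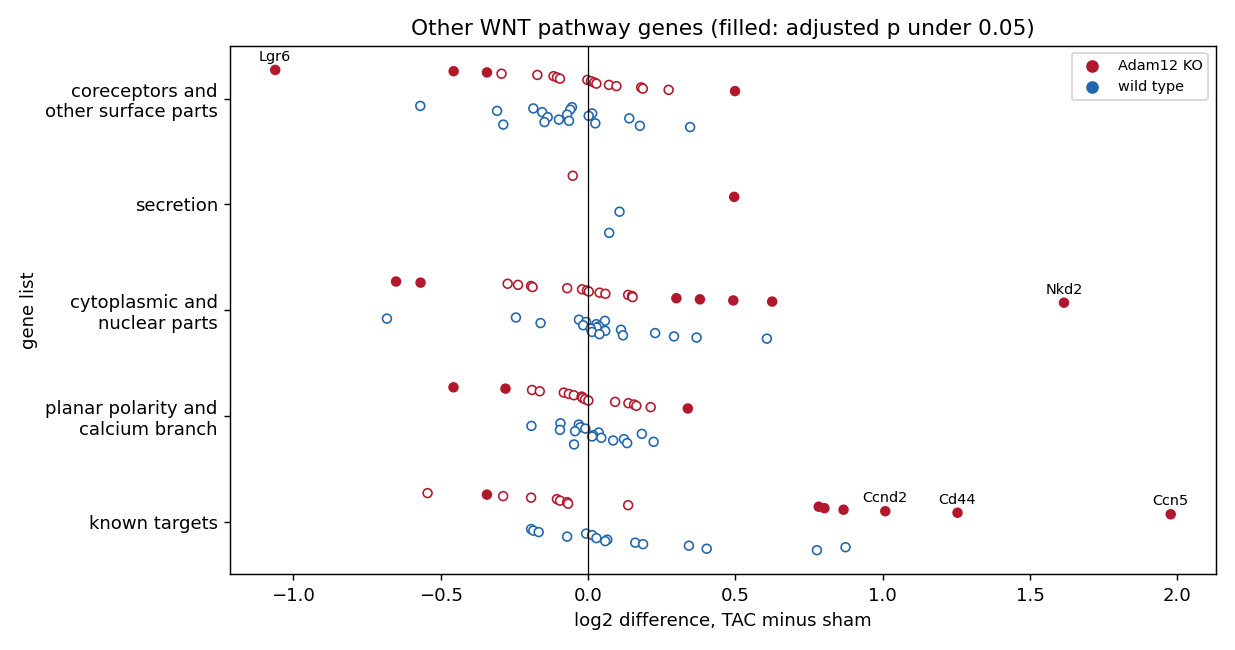
Log2 difference between TAC and sham of the measured genes of each of the 5 other pathway lists, in knockout hearts (red) and wild type hearts (blue); filled points have an adjusted p under 0.05, and called genes with a difference beyond 0.9 are named. All filled points are in knockout hearts, and the largest among them are Ccn5, Nkd2 and Cd44 above 0 and Lgr6 below 0.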

How the data were processed

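The deposited table held log2 signals of 65527 probe sets for 12 arrays, 1 per heart. Per the labels, 250 ng of total RNA was biotin-labelled for Affymetrix Clariom D mouse arrays; per the submitters' processing notes the authors used Affymetrix Expression Console, and its normalization is not given in the sources used here. The log2 scale was read from the values (1.27 to 19.93).

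Control probe sets (6732) were left out. Of 58795 others, 27268 carried 1 symbol, 1932 several and 29595 none. The brightest probe set with exactly 1 symbol stood for each gene (26989 genes). Symbols of 753 probe sets were updated through Entrez IDs after first results had been seen, which added Ccn4 and Ccn5 to the lists. No dim gene was removed. Adam12, on a probe set with 2 symbols, was read in a fit of all probe sets.

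limma 3.58.1 (R 4.3.3) fitted 4 group means over 12 arrays with default eBayes (prior degrees of freedom 3.29, residual 8). Tests were 2-sided, adjusted by Benjamini-Hochberg over 26989 genes. The procedure was tested on simulated data. Same-numbered KO TAC and KO sham replicates deviated together (r = 0.25, 0.14 and 0.17), and a fit with the replicate number as a block called the same 4 members there.

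The members and lists were chosen with earlier results of these data known. Every called member is given on every array, the 3 with the smallest p where under 3 were called, and up to 4 (TAC in knockout) and 3 (genotype after TAC) genes per list by smallest p. Of 169 list genes, 137 were measured.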

Additional observations from a re-analysis of the deposited data

Results flagged for a closer look

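The TAC arrays of the ligand Wnt10a lay below the sham mean in knockout hearts and above it in wild type hearts. Its interaction was -0.28 ± 0.12 (SE; limma unadjusted p = 0.0427, adjusted p = 0.438). It had 3.54, 3.48 and 3.41 in KO TAC and 3.63, 3.68 and 3.56 in KO sham replicates 1 to 3, so that the KO TAC arrays lay -0.21 to -0.08 from the KO sham mean. It had 3.61, 3.65 and 3.81 in WT TAC and 3.43, 3.55 and 3.70 in WT sham replicates 1 to 3, so that the WT TAC arrays lay 0.05 to 0.25 from the WT sham mean. All these signals lie below the 95th percentile of the background probe sets (5.78), and the interaction did not pass over all genes.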

How the results depend on the processing

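Across 427 other settings of 22 named differences, 389 kept their direction and side of the threshold, 27 lost the call, 11 gained one and 0 reversed. Frzb, Sfrp1 and Sfrp2 were called for TAC in knockout hearts in all 20 settings; the members called there numbered 3 to 5 when 1 array was left out. Leaving out 1 array gave 0 to 1 called members for TAC in wild type, 0 to 3 for genotype after TAC, 0 to 2 for the interaction and 3 to 6 for TAC averaged over genotypes. Array weights gave 1 for TAC in wild type (Sfrp2). For genotype after TAC, testing without dim genes, which kept 13 of the 34 members, gave 2 (Frzb and Sfrp1, adjusted p = 0.0381 and 0.0392); fewer genes were tested there. The replicate block gave 2 for genotype after TAC (Frzb and Sfrp1, adjusted p = 0.0368 and 0.0303). For KO TAC and WT TAC the same-numbered deviations correlated at 0.21, 0.08 and 0.09, so the numbers were not taken to pair these samples; over all groups 10 of 18 such correlations exceeded 0.1 (range -0.07 to 0.31). The replicate block changed no other count of called members. The cause of these changes was otherwise not tested. Signal close to background limits the 22 dimmer members.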
